A study of Mus musculus with 4 samples.

Results

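The genes described here are 43 genes of glycolysis and of glycogen metabolism, picked by symbol from the 23282 gene rows that were measured in mouse gastrocnemius, the main calf muscle. All 43 symbols were found, each as 1 row. Reads were present for 42 of them, and 41 reached a normalized count of 4 in every library. The exception without reads was Eno1.

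Gene expression was profiled by QuantSeq, a 3′ mRNA sequencing method whose reads come from the ends of polyadenylated transcripts. Male CDF1 mice either ran on a treadmill at high intensity (E) or did not, and either received CT26 murine colorectal cancer cells through the tail vein (T) or did not. The 4 groups, with 1 library each, were normal control (neither, E-T-), normal exercise (running alone, E+T-), cancer control (cancer cells alone, E-T+) and cancer exercise (both, E+T+). Where 4 values follow each other they stand in this order. The labels give an age of postnatal day 28, which by the methods is about the age at purchase, and the age at sampling is not stated. By the account of the study the muscle of a representative mouse was sequenced for each group, while the design text names 10 mice per group and does not say that RNA was pooled. As a model, the tumor arises from cells spread through the blood, and the muscle itself was the tissue profiled. With 1 library per group no difference has a replicate check, so no test of conditions was possible and no p-value is given.

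Glycolysis splits glucose to pyruvate and yields ATP without oxygen, and fast muscle fibres draw on it for short, intense work. Glycogen is the store of glucose in the muscle. Phosphorylase, switched on by phosphorylase kinase, releases glucose phosphate from it, and glycogen synthase, which protein phosphatase 1 switches on when a targeting subunit holds it at the glycogen particle, builds it up. Many steps exist as isoenzymes, with a form typical of muscle beside forms typical of liver, brain or most other tissues.

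The depth was between 10647462 and 13226028 reads per library. At this depth 3 reads, the floor used here for a gene without reads, are at most 2.82e-05% of a library. All 10 skeletal muscle markers had reads in every library, with summed normalized counts from 744733 in cancer control to 1203927 in normal control. Markers of other tissues also moved. Fast fibre markers were at least 2-fold lower with the tumor in unexercised mice in 5 of 11 genes, higher in 1 and neither in 5. Their median log2 change was -0.23. Their summed normalized count was 1613645, 1304495, 928134 and 990509 in the 4 libraries. Tnnc2 (403720 in normal control, 112377 in cancer control), Pvalb (246119, 13540) and Mylpf (240553, 59104) weighed most in its fall. Myh4, a fast myosin, had 228842 and 195389 and stayed within 2-fold. Slow fibre markers were higher in 9 of 11 genes and lower in 0, with sums of 11648, 19639, 38435 and 22193 in the same order. Fat cell markers were lower in 7 of 7 genes, fibroblast markers in 5 of 7, and red cell markers were higher in 8 of 8 genes in cancer exercise, against cancer control and also against normal exercise. Red cell sums were 249012, 51513, 235242 and 504638, lowest in normal exercise. With exercise in healthy mice, red cell markers were lower in 5 of the 5 genes that met the minimum. Fibroblast markers were lower there in 5 of 7, liver cell markers in 5 of 6 and fat cell markers in 3 of 7. In each of these lists 0 were higher. Slow fibre markers were higher there in 4 of 11 genes and lower in 0. Markers of carcinoma and epithelium summed to between 46.8 and 118.6 in any library, with 2 to 4 of 7 genes at 0 reads. With exercise in tumor-bearing mice fat cell markers were higher in 5 of 6 genes and fibroblast markers in 4 of 7, and nerve and Schwann cell markers were lower in 6 of 9. Neutrophil and macrophage markers were higher with the tumor in 3 of 8 genes without exercise and in 5 of 9 with it, and S100a8 had 17.1, 71.2, 2054 and 958. The part of these shifts in the values that follow was not tested. In bulk tissue, fewer cells of a type and less RNA per cell cannot be told apart.

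A gene was called when its deposited log2 values, log2 of the normalized read count plus 1, differed by 2-fold or more and it reached a normalized count of 4 in either library. For the tumor in unexercised mice, 7 of 42 genes were called higher and 16 lower, where 20.9% of all genes that met the minimum were called higher and 24.2% lower. The share of the 42 genes was 16.7% higher and 38.1% lower, and their median log2 change was -0.44, beside -0.043 over all genes. With exercise in tumor-bearing mice 12 were called higher and 2 lower, or 28.6% and 4.76%, beside 15.6% and 15.1% of all genes. Both comparisons contain the cancer control library, with opposite sign, so whatever is particular to that library enters both and opposite directions in them are not separate evidence. The median was 0.48, beside 0.005 over all genes.

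The other comparisons moved fewer of these genes. With exercise in healthy mice 2 were called higher and 2 lower, 4.76% each way, below the 9.44% and 12.1% of all genes, and the median was -0.08. Scaled to total reads, which raised the median of all genes to 0.15, the calls were 2 higher and 1 lower. With a minimum of 4 in both libraries 2 of 41 were called higher and 1 lower, beside 5.47% and 6.96% of all genes. The tumor in exercised mice gave 7 higher (16.7%) and 3 lower (7.14%), beside 13.9% and 16.3% of all genes, with a median of 0.13. This split was 4 and 4 under total read scaling, where the median of all genes was -0.19.

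**Figure D1:**
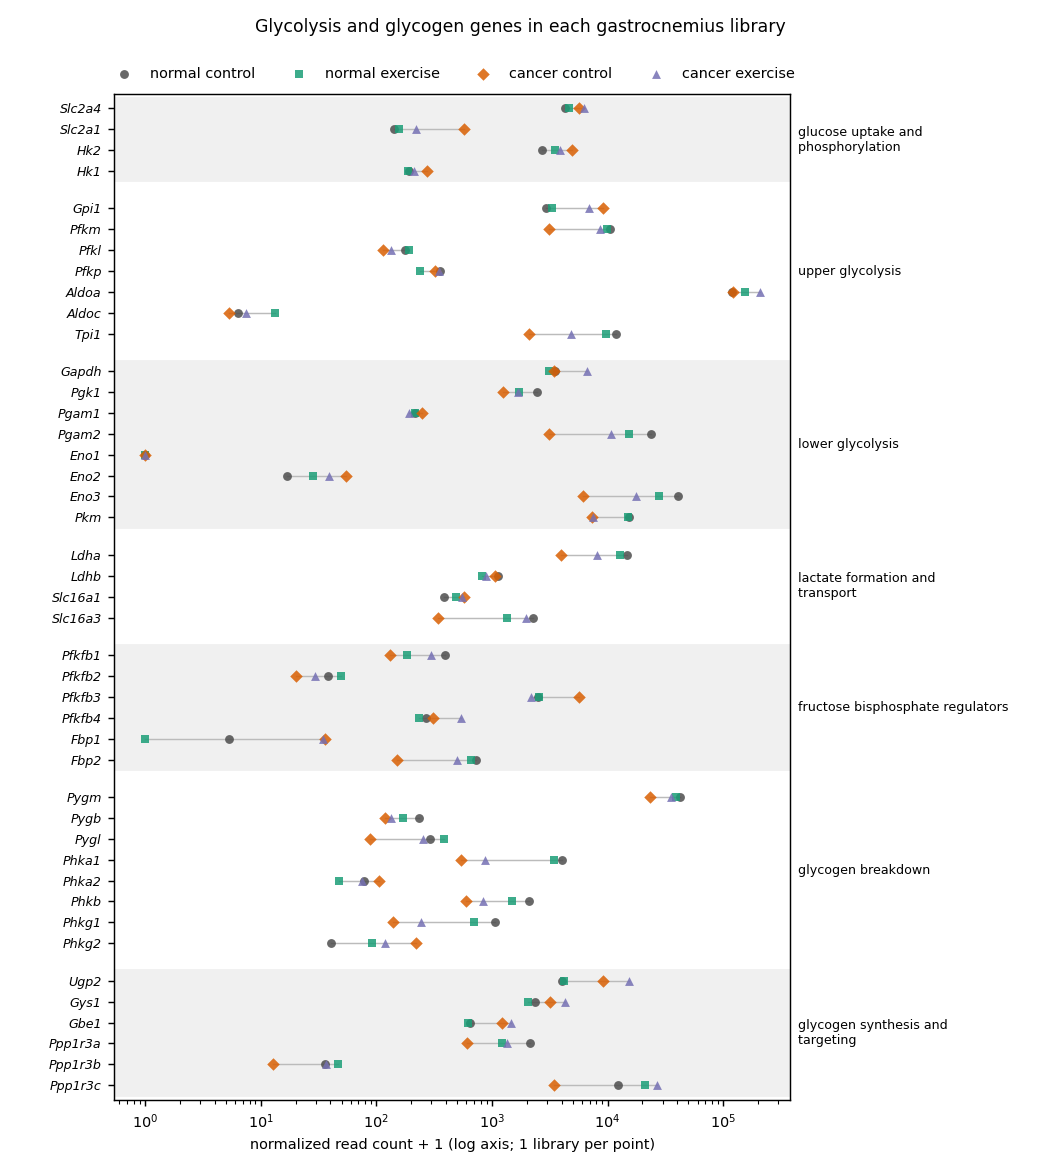
Normalized read count plus 1 (log axis) of each of the 43 genes in each of the 4 libraries, grouped by role; each point is 1 library and the grey lines span the 4 values. Cancer control (diamonds) is the lowest library for Pgam2 (3140), Eno3 (6126), Slc16a3 (340) and Ppp1r3c (3417), and the highest for Slc2a1 (571), Pfkfb3 (5665) and Phkg2 (217).

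Of all reads in a library, 2.77%, 3.20%, 1.96% and 3.22% fell on the 43 genes together. Aldoa, the muscle aldolase, held a large part of these. Without it the shares were 1.77%, 1.76%, 0.904% and 1.49%. The cancer control library was lowest on both counts, while cancer exercise was highest with Aldoa and lay below both tumor-free libraries without it. Genes of lower glycolysis took 0.714%, 0.588%, 0.189% and 0.371% of reads, and genes of glycogen synthesis and its targeting 0.180%, 0.274%, 0.155% and 0.412%. The lower glycolysis share was thus highest in normal control, and that of glycogen synthesis and its targeting highest in cancer exercise. Of the 20240, 36229, 16461 and 45433 reads of the latter role, Ppp1r3c, a targeting subunit, held 11561, 26208, 3191 and 24541. The order of this share is therefore not that of the enzymes Ugp2, Gys1 and Gbe1, given below, which had higher counts in both libraries with a tumor.

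**Figure D2:**
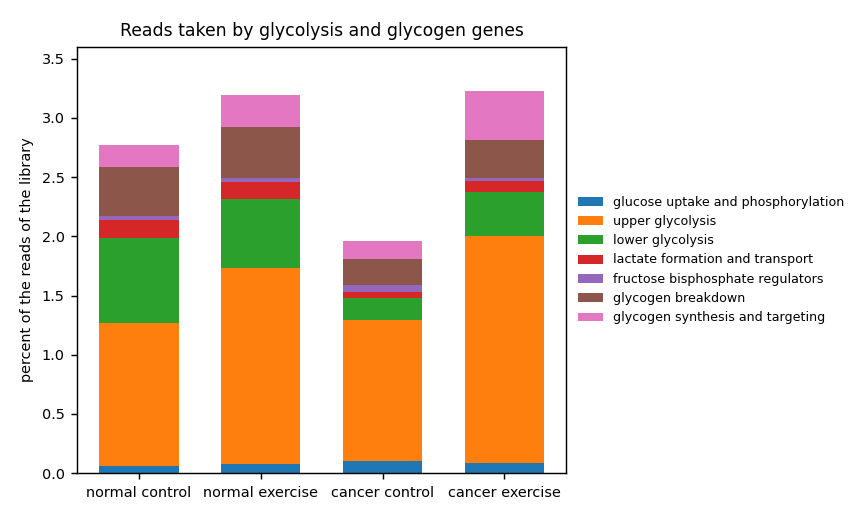
Percent of the reads of each library that fell on the genes of each of 7 roles, stacked from 0; 1 library per bar. The bar of cancer control ends at 1.96% and those of the other libraries between 2.77% and 3.22%.

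Promoter sequences of genes that turn up repeatedly in the results are shown here for reference. Windows of 250 bases before the transcription start came from a RefSeq table (GRCm38.p6) in which 41 of the 43 genes were matched by symbol, all but Slc2a4 and Ppp1r3b. They were searched on both strands for the binding motif of the MEF2 muscle factors. Other motifs searched were CACGTG, the shorter ACGTG that lies within it, the looser CANNTG that includes it, and TATAAA, whose reverse complement can overlap the MEF2 motif. The MEF2 motif was found in 3 of the 41 genes, Pgam2, Ppp1r3a and Pfkfb1, and in 3.42% of all genes. CACGTG was found in 7 of the 41 genes, beside 6.86% of all genes, and ACGTG in 18 of the 41, beside 18.5%. CANNTG was found in 28 of the 41, beside 69.3%, and TATAAA in 3 of the 41, beside 14.3%. The motifs were chosen after values were seen, and the windows below were picked because they hold matches. A match is a description of letters and not evidence of binding. Capitals mark the MEF2 motif in the first 3 windows and CACGTG or ACGTG matches in the 4th, read 5′ to 3′ on the strand of the gene.
Pgam2, chr11:5803797-5804046, minus strand, match starting 80 bases before the start: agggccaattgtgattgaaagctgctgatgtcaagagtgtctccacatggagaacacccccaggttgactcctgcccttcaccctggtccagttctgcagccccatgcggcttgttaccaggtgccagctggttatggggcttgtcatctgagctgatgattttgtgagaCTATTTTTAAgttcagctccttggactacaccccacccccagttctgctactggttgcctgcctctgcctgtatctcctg
Ppp1r3a, chr6:14755275-14755524, minus strand, match starting 100 bases before the start: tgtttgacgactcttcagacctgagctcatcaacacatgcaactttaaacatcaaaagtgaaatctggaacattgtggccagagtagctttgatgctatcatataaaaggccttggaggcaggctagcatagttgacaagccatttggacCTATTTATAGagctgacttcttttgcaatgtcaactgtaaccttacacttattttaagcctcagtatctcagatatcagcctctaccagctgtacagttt
Pfkfb1, chrX:150589666-150589915, plus strand, 1 of several starts, match 113 bases before it: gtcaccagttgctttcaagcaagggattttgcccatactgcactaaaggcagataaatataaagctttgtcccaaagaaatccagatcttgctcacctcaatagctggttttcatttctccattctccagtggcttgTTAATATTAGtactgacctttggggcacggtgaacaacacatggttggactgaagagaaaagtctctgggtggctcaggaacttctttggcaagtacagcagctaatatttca
Ppp1r3c, chr19:36736605-36736854, minus strand, CACGTG starting 104 bases before the start: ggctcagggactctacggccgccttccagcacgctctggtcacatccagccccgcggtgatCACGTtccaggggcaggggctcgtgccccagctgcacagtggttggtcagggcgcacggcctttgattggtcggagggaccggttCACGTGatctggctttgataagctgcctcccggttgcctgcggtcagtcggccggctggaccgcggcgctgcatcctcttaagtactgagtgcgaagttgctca
Of the 15 genes with a window that were called lower with the tumor in unexercised mice, 3 held the MEF2 motif, and of the 7 called higher 0 did. The same counts were 4 and 1 for CACGTG, 7 and 3 for ACGTG, 12 and 6 for CANNTG, and 2 and 1 for TATAAA. The motifs were not counted among all genes called lower or higher, so nothing is drawn from this split.

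Glucose enters muscle through transporters and is trapped by hexokinase. The insulin-responsive transporter Slc2a4 (GLUT4) had normalized read counts of 4251 and 4675 in the tumor-free libraries, at rest and with exercise, and of 5712 and 6312 in those with a tumor. No comparison of it reached 2-fold. The widely expressed transporter Slc2a1 (GLUT1) stood apart in 1 library, with 140, 155, 571 and 221 in the same order. It was 4.04-fold higher with the tumor in unexercised mice, a log2 change of 2.02 with a 95% counting interval of 1.75 to 2.31, and it was lower (-1.37, from -1.61 to -1.13) with exercise in tumor-bearing mice. Such intervals are exact binomial ones on the reads of the 2 libraries, and cover counting error only. Hexokinases moved less. Hk2, the main hexokinase of muscle, had 2714, 3543, 4948 and 3915, with a log2 change of 0.87 for the tumor without exercise, and Hk1 lay between 188 and 272.

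In upper glycolysis, the steps that turn glucose phosphate into triose phosphates, genes differed in direction with the tumor. Gpi1, glucose phosphate isomerase, had 2958, 3333, 9171 and 6955. It was higher in both libraries with a tumor, by 1.63 (1.57 to 1.69) without exercise and by 1.06 (1.0 to 1.12) with it, the latter 0.91 and no longer called under total read scaling. Pfkm, the muscle form of the rate-controlling phosphofructokinase, went the other way in cancer control alone, with 10440, 9959, 3110 and 8586. Its log2 change was -1.75 (-1.81 to -1.69) with the tumor in unexercised mice and 1.46 (1.40 to 1.53) for exercise where a tumor was present. Tpi1, triose phosphate isomerase, had 11885, 9707, 2083 and 4813, and was lower with the tumor, with log2 changes of -2.51 without exercise and -1.01 with it. With exercise in tumor-bearing mice it was higher by 1.21. Among the 4 others, Pfkl (114 to 192), the liver form of phosphofructokinase, and Pfkp (238 to 357), the platelet form, stayed below 2-fold in every comparison. So did Aldoa, the muscle aldolase, with 118867, 153831, 120526 and 206960. Its largest log2 change was 0.78, for exercise in tumor-bearing mice, and the near-identical rows Aldoart1 (480 to 806 reads) and Aldoart2 (16 to 75 reads) may share some of its reads. Aldoc rested on 5, 15, 4 and 6 reads, and its call with exercise in healthy mice, 1.07, had an interval from -0.34 to 3.01.

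The enzymes typical of muscle in lower glycolysis, which leads to pyruvate, included some of the lowest tumor values. Pgam2, the muscle phosphoglycerate mutase, had 23689, 15275, 3140 and 10608. It was 7.54-fold lower with the tumor in unexercised mice, a log2 change of -2.91 (-2.97 to -2.86), and 3.38-fold higher with exercise in tumor-bearing mice. In exercised mice its tumor difference was -0.53. Eno3, the muscle enolase, followed the same order of libraries with 40313, 27745, 6126 and 17535. The log2 changes of Eno3 were -2.72 (-2.76 to -2.68) for the tumor without exercise, 1.52 (1.47 to 1.56) for exercise with a tumor and -0.66 for the tumor with exercise. Pkm, pyruvate kinase, differed in that it was low in both tumor libraries, with 15435, 14888, 7316 and 7527. It was called for the tumor without exercise (-1.08) and missed 2-fold with it (-0.98), values that lie side by side.

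The remaining genes of lower glycolysis moved less or in another way. Gapdh, which is often used as a reference gene, had 3491, 3144, 3448 and 6695, high in cancer exercise alone. Its log2 change there was 1.09 (1.03 to 1.15) against normal exercise, or 0.94 under total read scaling, and 0.96 against cancer control. Pgk1, phosphoglycerate kinase, had 2445, 1699, 1256 and 1672, with -0.96 for the tumor without exercise. Eno2, the enolase of neurons, had 16, 27.5, 53.5 and 37.9. It was higher with the tumor in unexercised mice by 1.68 (0.89 to 2.69) on 15 and 50 reads. Nerve and Schwann cell markers were higher there in 3 of 9 genes and lower in 2, beside 20.9% and 24.2% of all genes. Their summed counts were 6097, 3326, 6542 and 2252. The part of these cells in Eno2 was not tested. Pgam1, the general mutase, ranged from 189.5 to 248.5. Eno1 had 0 reads in every library, which at these depths allows a share of up to 2.82e-05%. Its near-identical copy Eno1b, listed in 2 rows, held between 119 and 285 reads, so the value of Eno1 is uncertain.

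**Figure D3:**
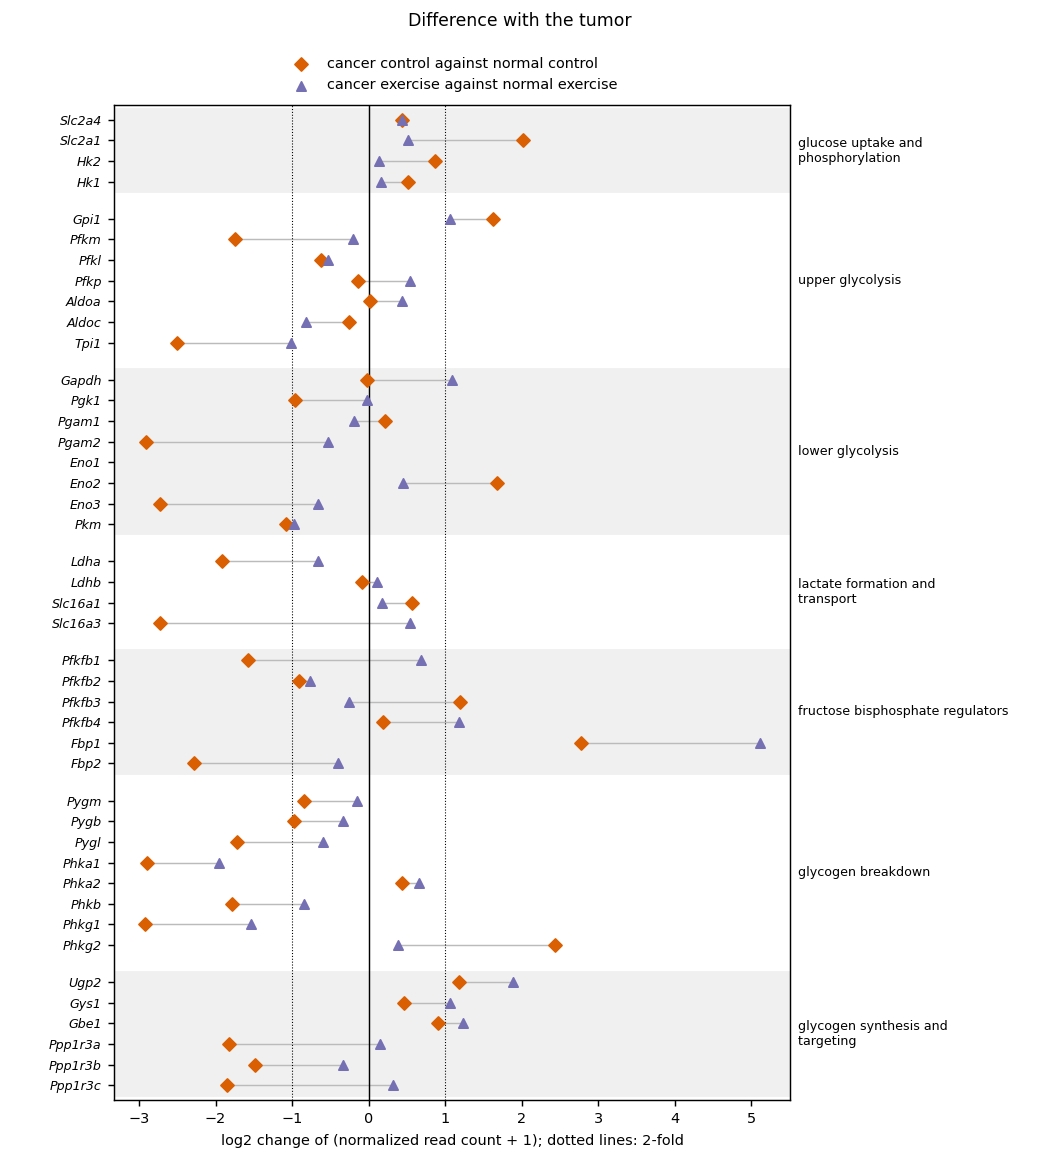
Log2 change of the normalized read count plus 1 with the tumor for 42 of the genes (Eno1 has no reads), in unexercised mice (diamonds) and in exercised mice (triangles); dotted lines mark 2-fold and 1 pair of libraries stands behind each point. Pgam2 lies at -2.91 and -0.53, Phka1 at -2.90 and -1.96, and Ugp2 at 1.18 and 1.89.

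Pyruvate becomes lactate through lactate dehydrogenase, and monocarboxylate transporters carry lactate across the cell membrane. Ldha, the muscle subunit, had 14775, 12791, 3920 and 8106. Its log2 change was -1.91 (-1.97 to -1.86) for the tumor in unexercised mice. With running in tumor-bearing mice it was higher by 1.05 (0.99 to 1.11), or 0.98 under total read scaling. Slc16a3 (MCT4), the exporter of glycolytic fibres, showed a wider spread with 2254, 1340, 340 and 1955. Its log2 change was -2.73 (-2.91 to -2.56) for the tumor in unexercised mice. Exercise with a tumor gave 2.52 (2.35 to 2.70), or 5.74-fold higher. The counterparts of oxidative fibres stayed within 2-fold. Ldhb ranged from 823 to 1127 and Slc16a1 (MCT1) from 383 to 569.

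Phosphofructokinase is activated by a fructose bisphosphate that the bifunctional Pfkfb enzymes make and break down, and the fructose bisphosphatases run the step backwards. Pfkfb1 was the only 1 of the 42 genes called in opposite directions by exercise, where 4.99% of all genes were. It had 394, 183, 131 and 297. Its log2 change for exercise was -1.10 (-1.35 to -0.86) in healthy mice, or -0.94 under total read scaling, and 1.18 (0.87 to 1.5) where a tumor was present.

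Pfkfb3, the isoenzyme with the strongest kinase activity, was high in cancer control alone. It had 2489, 2561, 5665 and 2158, with log2 changes of 1.19 (1.12 to 1.26) for the tumor without exercise and -1.39 (-1.47 to -1.32) for exercise with the tumor. Pfkfb4 was high in cancer exercise, with 269, 235, 307 and 535, and its call of 1.18 was for the tumor in exercised mice. Pfkfb2, known from heart, lay between 19.3 and 48.8 and was not called. Fbp2, the muscle bisphosphatase, had 734, 660, 150 and 501, with -2.28 (-2.56 to -2.03) for the tumor without exercise and 1.73 (1.46 to 2.02) for exercise with the tumor. The liver form Fbp1 moved in the other direction on few reads, 4, 0, 33 and 31. It was at least 13.8-fold higher with the tumor in exercised mice and higher by 2.77 (1.56 to 5.01) in unexercised mice. With exercise in healthy mice it had 4 reads against 0, and the interval of that call reached 0.21 and thus included no change. Liver cell markers were higher in 4 of 6 genes and lower in 1 with the tumor in unexercised mice, beside 20.9% and 24.2% of all genes. In exercised mice they were higher in 3 of 6 and lower in 0, beside 13.9% and 16.3%. Their summed normalized count was 2024, 210, 2317 and 1212, or 520, 143, 1899 and 190 without Cyp2e1, which was left out after its values were seen because it carries much of the sum. Their part in Fbp1 was not tested.

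**Figure D4:**
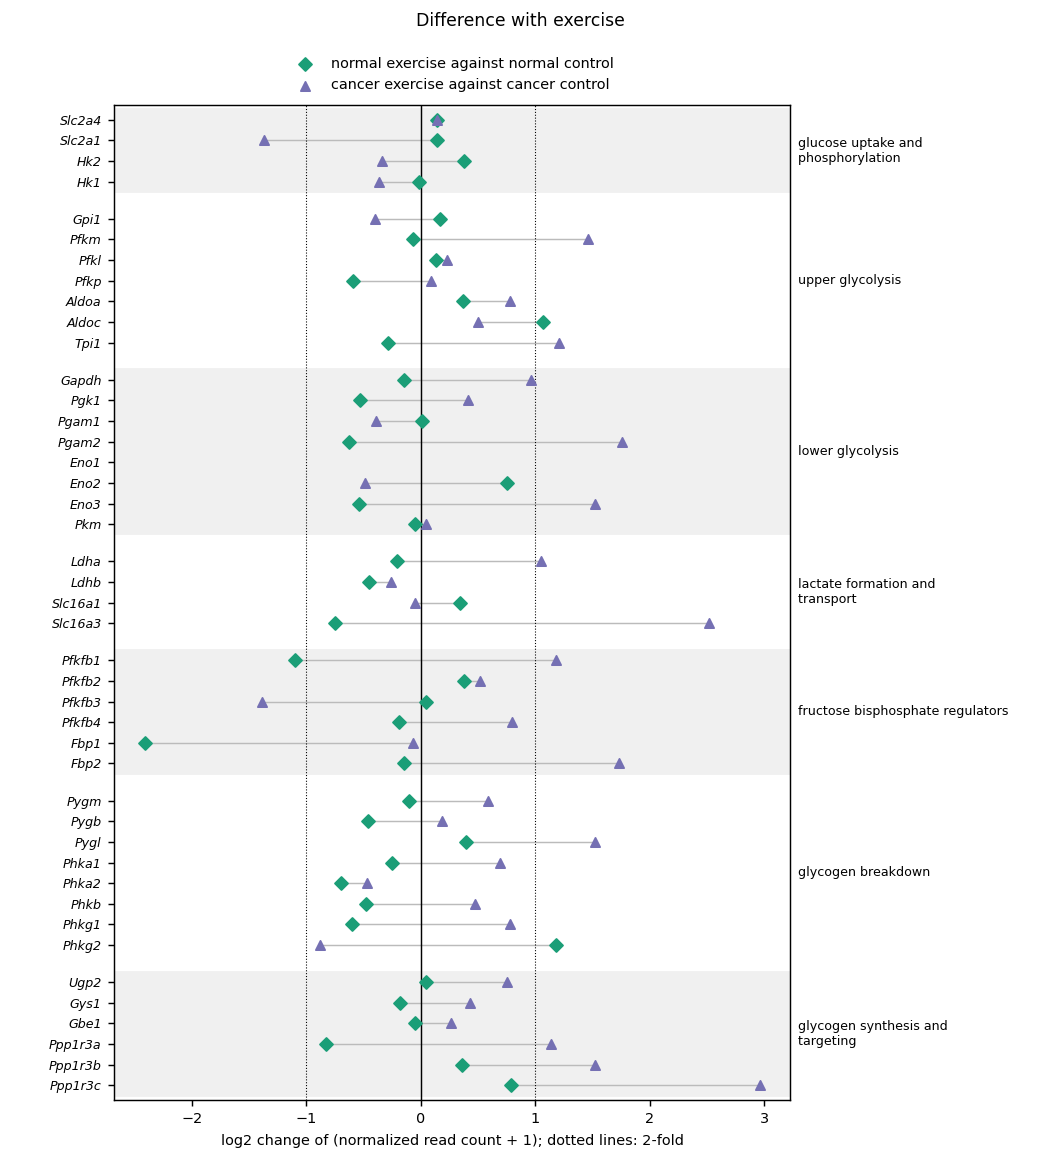
Log2 change of the normalized read count plus 1 with exercise for 42 of the genes (Eno1 has no reads), in healthy mice (diamonds) and in tumor-bearing mice (triangles); dotted lines mark 2-fold and 1 pair of libraries stands behind each point. Pfkfb1 lies past 2-fold on either side, at -1.10 and 1.18, and Ppp1r3c at 0.79 and 2.96.

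Phosphorylase kinase, which switches on glycogen breakdown, was low in both tumor libraries in its muscle subunits. Phka1, the muscle regulatory subunit, had 4055, 3422, 543 and 876. Its log2 change with the tumor was -2.90 (-3.04 to -2.77) without exercise and -1.96 (-2.08 to -1.86) with it. Phkg1, the muscle catalytic subunit, had 1061, 701, 139 and 241, with -2.92 (-3.20 to -2.66) and -1.54 (-1.76 to -1.33). Phkb, the beta subunit, had 2077, 1488, 600 and 832 and was called for the tumor without exercise only (-1.79). Phkg2, the catalytic subunit known from liver and testis, went the other way, with 39.4, 90.7, 217 and 118. It was higher by 2.43 (1.95 to 3.01) with the tumor in unexercised mice and by 1.18 (0.66 to 1.78) with exercise in healthy mice, from 37 reads in normal control. Phka2, the liver regulatory subunit, stayed within 2-fold, from 46.9 to 104.

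The 3 phosphorylases differed among themselves. Pygm, the muscle phosphorylase, had 42083, 39347, 23509 and 35388, and its largest log2 change was -0.84. Pygl, the liver form, had 293, 384, 87.9 and 253, with -1.72 (-2.11 to -1.38) for the tumor without exercise and 1.52 (1.16 to 1.91) for exercise with it. Pygb, the brain form, had 232, 168, 118 and 133, just short of 2-fold at -0.97.

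The enzymes that build glycogen had higher counts in both libraries with a tumor. Ugp2, which makes the UDP-glucose used to build glycogen, had 4058, 4178, 9165 and 15456. It was higher with the tumor by 1.18 (1.12 to 1.23) without exercise and by 1.89 (1.84 to 1.93) with it. Together with Gpi1 and Fbp1 it was called higher in both tumor comparisons, beside 6.90% of all genes. In exercised mice the call of Gpi1 was lost under total read scaling, and that of Fbp1 with a minimum of 4 in both libraries. Phka1, Phkg1 and Tpi1 were called lower in both tumor comparisons, beside 8.30% of all genes. Gys1, muscle glycogen synthase, had 2335, 2061, 3206 and 4326 and was called only in exercised mice, by 1.07 (1.0 to 1.14), or 0.91 under total read scaling. Gbe1, the branching enzyme, had 648, 624, 1220 and 1464, again called only there (1.23), with 0.91 in unexercised mice. Whether these tumor differences depend on exercise was not tested.

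The targeting subunits of protein phosphatase 1 took another course. Ppp1r3a, the muscle glycogen-targeting subunit, had 2153, 1214, 608 and 1344, with log2 changes of -1.82 (-1.96 to -1.69) for the tumor without exercise and 1.14 (1.0 to 1.29) for exercise with it. Ppp1r3c, also called protein targeting to glycogen, had 12296, 21246, 3417 and 26578. Cancer control was thus far below the other libraries, with -1.85 (-1.90 to -1.79) for the tumor, and exercise with a tumor gave 2.96 (2.91 to 3.01), or 7.78-fold, the largest increase of the 42 genes in that comparison. Ppp1r3b, known from liver, went the same way on 33, 56, 11 and 33 reads, with -1.49 (-2.71 to -0.55) and 1.52 (0.58 to 2.73).

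Ratios of isoenzymes within a library need no scaling between libraries. They were formed for 11 enzymes and transporters as the muscle form over its other forms, pairs that were chosen after values were seen. For lactate dehydrogenase and the monocarboxylate transporters the other form, Ldhb or Slc16a1, is that of oxidative fibres and thus also a form of muscle. Since capture by 3′ sequencing differs between genes, a ratio says nothing of which form is more abundant, and is only compared between libraries. The ratio of Phkg1 to Phkg2 was 26.9, 7.72, 0.64 and 2.04 in the 4 libraries. That of Eno3 to Eno2 was 2530, 1010, 114 and 463, and that of Slc16a3 to Slc16a1 was 5.89, 2.76, 0.597 and 3.57. Each was lowest in cancer control. The enolase ratio leaves out Eno1, which had no reads, and its copy Eno1b. The 2 rows of Eno1b held 155, 267, 202 and 124 reads and 176, 285, 202 and 119 reads. Eno2 had 15, 34, 50 and 35. The enolase ratio changed by -1.33 (log2) with exercise in healthy mice and by -1.12 with the tumor in exercised mice, on Eno2 alone. Both are counted below as at least 2-fold lower. Each row of Eno1b held more reads than Eno2 in every library, and a ratio with Eno1b was not formed. These 2 changes may therefore not reach 2-fold once Eno1b is included. For the tumor in unexercised mice 8 of 11 ratios were at least 2-fold lower, and the 3 that were higher, of phosphorylase, hexokinase and aldolase, did not reach 2-fold. With exercise in tumor-bearing mice 10 of 11 were higher, 8 of them at least 2-fold, in a comparison that also contains cancer control. With exercise in healthy mice 6 were lower, 3 of them at least 2-fold, and 4 were higher, 0 of them 2-fold. With the tumor in exercised mice 8 were lower, 3 of them at least 2-fold, and 3 were higher, 1 of them at least 2-fold. That 1 was aldolase (1.33), on 15 and 6 reads of Aldoc in normal exercise and cancer exercise. Its intervals overlapped, from 7670 to 22600 and from 14600 to 86800. For Hk2 to Hk1 the log2 change of the ratio for exercise where a tumor was present was 0.03.

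**Figure D5:**
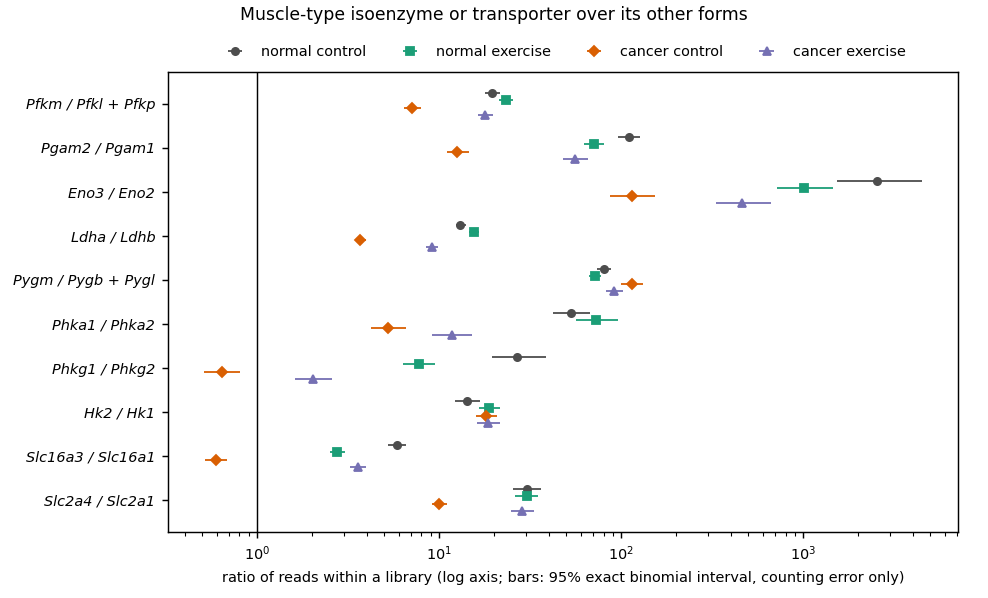
Ratio of reads of the muscle form over the other forms within each library (log axis) for 10 of the 11 pairs, with bars for the 95% exact binomial interval, which covers counting error only; aldolase is left out because Aldoc had 4 to 15 reads. The ratio of Phkg1 to Phkg2 is 26.9 in normal control and 0.64 in cancer control, and that of Slc16a3 to Slc16a1 is 5.89 and 0.597. That of enolase is over Eno2 alone, without Eno1b.

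The neighbouring genes of these pathways were taken from a wider list. Of 19 other isoenzymes and steps that met the minimum, 12 were called lower and 2 higher for the tumor in unexercised mice, with a median of -1.13, beside 24.2% and 20.9% of all genes. Of 18 in the exercise comparison with a tumor 8 were called higher and 1 lower, beside 15.6% and 15.1%. Gpd1, glycerol phosphate dehydrogenase, was among the lowest, with 4000, 4290, 197 and 966, a log2 change of -4.34. Of 19 genes of glycogen handling, 10 were called lower and 4 higher for the tumor without exercise, beside the same shares as above. Pgm2, a phosphoglucomutase, which interconverts the glucose phosphates, had 13615, 13853, 945 and 2073, and Prkag3, an AMPK subunit of glycolytic muscle, had 1842, 1838, 31.1 and 129. Both were lower in the tumor libraries, with log2 changes of -3.85 and -5.84 in unexercised mice. Glycogenin, Gyg, which primes glycogen, had 1977, 2924, 4810 and 3784, highest in cancer control. Pgm1 rested on 16, 39, 4 and 41 reads.

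Regulators of glucose use showed no common direction. Of 20 that met the minimum, 5 were called higher and 3 lower for the tumor in unexercised mice, beside 20.9% and 24.2% of all genes, with a median of 0.24. Mef2c, a muscle transcription factor, had 16157, 11143, 2102 and 4941, and Myod1, a muscle determination factor, had 306, 289, 21.5 and 213, both lowest in cancer control. Mef2d and Mef2a, related factors added here after their values were seen, were highest there, with 26.6, 22.5, 154 and 60.6 for Mef2d and 1127, 878.8, 1551 and 1127 for Mef2a, which was not called. Arrdc4, a glucose-induced arrestin, was highest there, with 191, 278, 1504 and 319. Myc had 1, 4, 35 and 41 reads, more in both libraries with a tumor. For exercise in healthy mice, 1 gene was called higher and 2 lower of 20 isoenzymes and steps, 2 and 0 of 19 glycogen genes, and 1 and 2 of 19 regulators, beside 9.44% and 12.1% of all genes.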

How the data were processed

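QuantSeq 3′ libraries of gastrocnemius RNA, 1 per group, were used. The authors used Bowtie2 for alignment, bedtools for counts per gene and edgeR for quantile normalization; per the labels the build was mm10. Versions, annotation and the handling of strand and of reads matching several genes are not given in the sources used here. What was deposited is, per gene, the log2 of 1 plus a normalized read count. Overlapping genes and near-identical copies can therefore share reads.

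Groups came from the sample titles. Whole reads were rebuilt in Python 3.11.15 (numpy 2.4.6, scipy 1.17.1, pandas 2.3.3) by fitting the quantile adjustment. All deposited values matched within 0.0006, and 95.52% to 96.69% of values per library fitted 1 count only; high counts are approximate. A simulated data set was used to test the rebuilding. Fold changes are differences of deposited values with a pseudocount of 1, which understates low genes. A gene was called at 2-fold or more where either library reached a normalized count of 4. Intervals are 95% Clopper-Pearson on rebuilt reads and, without molecular identifiers, cover counting error only. Genes at 0 reads were set to a floor of 3 reads for fold bounds. Promoters were from the RefSeq table for GRCm38.p6.

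Genes given in full were those called at least once with a count of at least 16, and the highest of each role; from the wider and marker lists, at most 4 genes with the largest tumor change, plus Gyg, Pgm1 and Pgm2. A few genes of the wider lists are counted there but not reported here by name. The genes and lists were chosen with earlier results of these data known, and roles, isoenzyme pairs and motifs after values were seen. Other scalings, pseudocounts, minimums and a lower fold were tried.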

Additional observations from a re-analysis of the deposited data

Results flagged for a closer look

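Differences of the same effect between contexts were listed when the gene was called in both comparisons in opposite directions. With 1 library per group none of these differences was tested. Among the 43 genes this was Pfkfb1 alone, whose exercise change in tumor-bearing mice exceeded that in healthy mice by 2.28 on the log2 scale, on 370 reads in normal control, 226 in normal exercise and 122 and 274 in the cancer control and cancer exercise libraries. From the wider lists, the tumor change with exercise minus that without was 3.55 for Hk3, on 6, 4, 1 and 12 reads. It was 2.93 for Pck1, on 289, 37, 97 and 73 reads. Ppp1r3g gave -5.58 for the tumor effect and also -5.58 for the exercise effect, which is the same arithmetic on the same 4 libraries with 3, 10, 21 and 0 reads.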

How the results depend on the processing

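No paired analysis was possible because each group had 1 library, and no library could be left out. Of 408 values of called genes under the alternatives, 386 moved by less than their counting interval, 22 moved more and 0 changed sign. Another minimum or fold keeps the value itself, so those settings could only change the call. Such values are among the 386 by construction, as are values with an unbounded interval, which were counted as not moved. Of 51 calls, 8 were lost at least once. Under total read scaling these were Pfkfb1 with exercise in healthy mice (-0.94), Ldha with exercise in tumor-bearing mice (0.98), and Gapdh (0.94), Gpi1 (0.91) and Gys1 (0.91) with the tumor in exercised mice. For exercise in healthy mice, Aldoc was lost with a pseudocount of 4 (0.80) or a minimum of 16. Fbp1 (-2.41) was lost there with a minimum of 4 in both libraries or of 16. The Fbp1 call with the tumor in exercised mice (5.11) was lost with a minimum of 4 in both libraries. With exercise in healthy mice, called genes numbered 2 at a minimum of 16 and 12 at 1.5-fold, against 4. At 1.5-fold they numbered 22 with exercise in tumor-bearing mice, against 14, and 19 with the tumor in exercised mice, against 10. The median over the genes changed sign under total read scaling, to 0.08 with exercise in healthy mice and to -0.03 with the tumor in exercised mice, where the median of all genes moved to 0.15 and -0.19. With the tumor in unexercised mice it was -0.62 at a minimum of 16. The other counts and medians stayed within 1.5 times or within the counting error of a typical gene. Depth limits Aldoc, Fbp1, Eno2 and Ppp1r3b, with at most 56 reads each.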
